A study of Mus musculus with 4 samples.

Results

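The genes described here are 9 regulators that direct progenitors toward photoreceptor fate or silence genes in photoreceptors: Otx2, Rorb, Prdm1, Crx, Nrl, Nr2e3, Esrrb, Samd7 and Samd11. They were taken by gene symbol from a deposited table of normalized read counts and are 9 of its 22690 genes, each with 1 row. The table comes from C57BL/6 mouse retinas of postnatal day 2, from which cells with a 4N DNA content were collected by flow cytometry. A cell that has replicated its DNA and not yet divided has such a content. Whether all collected cells were of this kind was not tested. The 2 cKO libraries are GFP-positive cells labelled Casz1 cKO, a conditional knockout of the zinc finger transcription factor Casz1, and the 2 WT libraries are GFP-negative cells labelled wild type. Genotype and GFP status therefore differ together and cannot be told apart. The sources used here do not give the driver of the recombination, what GFP reports or the number of animals behind a library. Each column name carries 1 of 2 tags, each on 1 library of each group. The tags are numbers in the column names and are called A and B here. The libraries are therefore called cKO A, cKO B, WT A and WT B.

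Photoreceptors arise from retinal progenitors in which the homeodomain factor Otx2 becomes active. Otx2 acts with the nuclear receptor Rorb and switches on Crx, a related homeodomain factor that drives many photoreceptor genes, and the repressor Prdm1, which opposes bipolar cell genes. Nrl, a leucine zipper factor, then sets the rod fate, and its target Nr2e3, a nuclear receptor, holds down cone genes in rods and activates rod genes together with Crx and Nrl. Samd7 and Samd11 are SAM-domain proteins of photoreceptors that work with Polycomb repressive complex 1 to silence genes that do not belong in rods. At the second day after birth in the mouse, many newborn cells of the retina are rods.

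Reads in genes numbered 22326119 in cKO A, 89473701 in cKO B, 75832360 in WT A and 83753377 in WT B. The library cKO A stands apart: it correlated with the others at 0.902 to 0.918 over tested genes, while pairs of the others gave 0.988 to 0.993, and it had 9179 genes at 0 against 5793 to 6169. The values of the 9 regulators are therefore given by library, and their log2 fold changes and the medians of gene lists are also given without cKO A. Casz1 itself had 8687 and 10772 normalized counts in cKO A and B, against 13162 and 11995 in WT A and B. Reads over the whole gene do not measure a deleted part. Markers of retinal progenitors were present in all libraries, with 0 of 14 at 0 in any of them. Nothing says that the libraries of a group came from separate animals, so p-values measure only the spread between these libraries.

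The promoters of the silencers and of Crx are shown first, because these genes share a short motif there. That of Nr2e3 is shown because Nr2e3 was lower like Samd7 and Samd11 and its window lacks the motif. The sequences are from RefSeq on build GRCm38.p6, cover the 250 bases before the start annotated there and are written 5′ to 3′ on the strand of the gene. The windows of Samd11 and Nr2e3 lie inside the spans that GENCODE M21 gives these genes. Bases before the start of those longer spans were not searched. Capitals mark TAATCC, the core recognised by Otx2 and Crx, or GGATTA, the same core on the opposite strand. Samd11 lies on chr4:156255343-156255592, minus strand, Samd7 on chr3:30746043-30746292, plus strand, Crx on chr7:15879956-15880205, minus strand, and Nr2e3 on chr9:59950080-59950329, minus strand.
Samd11: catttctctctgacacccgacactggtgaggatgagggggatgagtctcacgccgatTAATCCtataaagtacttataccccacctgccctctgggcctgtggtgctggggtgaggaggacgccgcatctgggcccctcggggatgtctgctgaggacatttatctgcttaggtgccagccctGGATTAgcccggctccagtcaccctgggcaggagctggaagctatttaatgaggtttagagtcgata
Samd7: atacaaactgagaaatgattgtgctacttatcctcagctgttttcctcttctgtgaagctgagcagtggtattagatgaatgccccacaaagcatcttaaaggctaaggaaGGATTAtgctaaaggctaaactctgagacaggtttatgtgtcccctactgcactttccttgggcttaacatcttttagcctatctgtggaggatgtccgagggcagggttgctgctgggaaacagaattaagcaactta
Crx: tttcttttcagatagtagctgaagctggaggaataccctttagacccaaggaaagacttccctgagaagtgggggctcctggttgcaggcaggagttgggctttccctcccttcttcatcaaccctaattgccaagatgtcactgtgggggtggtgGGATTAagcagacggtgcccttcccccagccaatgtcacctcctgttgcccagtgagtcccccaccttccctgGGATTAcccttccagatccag
Nr2e3: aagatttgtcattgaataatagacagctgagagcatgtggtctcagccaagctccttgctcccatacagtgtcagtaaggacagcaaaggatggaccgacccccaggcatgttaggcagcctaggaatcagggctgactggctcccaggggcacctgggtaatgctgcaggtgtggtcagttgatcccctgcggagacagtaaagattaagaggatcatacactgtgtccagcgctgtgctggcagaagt
In Samd11 the matches begin 193 and 67 bases before the start, in Samd7 the match begins 139 bases before it, and in Crx they begin 94 and 21 bases before it. On either strand, TAATCC occurs in 6.25% of all 32851 RefSeq promoter windows over these 250 bases, and at least 2 matches occur in 0.295%. All 9 regulators had 1 or more windows, 14 in all. Over the full windows of 300 bases, 4 of these 14 windows held a match, as did 7.06% of all windows. They were those of Samd11, Samd7 and Crx and 1 of the 4 windows of Otx2. The match of Otx2 begins 211 bases before the start, so it too lies within the 250 bases, though its sequence is not printed. Other motifs were searched on both strands in the full windows. TGCTGA, a core of Nrl sites that 19.5% of windows hold, was found in Samd11, in 2 windows of Otx2 and in 1 of Rorb. AGGTCA, a core of nuclear receptor sites held by 16.3%, was found in Samd11 only. AAGTCA, held by 15.1%, was found in Esrrb only, and GAAAGT, a core of Prdm1 sites held by 14.3%, in Esrrb and Samd7. TCAAGGTCA, the longer estrogen-related receptor site that contains AGGTCA, is held by 0.423% of windows and was found in none of the 9 genes. These matches describe letters in a window and not bound sites.

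Among the factors that commit cells to the photoreceptor path, Otx2 and Prdm1 were lower in both cKO libraries by small amounts, and the groups overlapped for Rorb. None of these passed the test over all genes. Otx2 (ENSMUSG00000021848, chromosome 14, 48657677 to 48673819 of GRCm38, minus strand) had 28239 and 35662 normalized counts in cKO A and B, against 43847 and 39800 in WT A and B. The cKO libraries were below both WT libraries, with cKO B closer to them. The means were 31951 ± 5249 in cKO and 41823 ± 2862 in WT (SD, n = 2 each), so that cKO stood at 76.4% of WT. Prdm1 (ENSMUSG00000038151, chromosome 10, 44437177 to 44528501) had 9827 and 12266 in cKO A and B, against 16306 and 13675 in WT A and B. Its groups did not overlap, but cKO B stood at 89.7% of WT B. Rorb (ENSMUSG00000036192, chromosome 19, 18930605 to 19111196) had 19120 and 41665 in cKO A and B, against 33863 and 46453 in WT A and B. Both tag A libraries were the lower ones of their groups, and the lower WT library lay below the higher cKO library. The log2 fold changes, cKO minus WT on log2(normalized count + 1), were −0.40 for Otx2 with a standard error of 0.21, −0.44 for Prdm1 with 0.20 and −0.49 for Rorb with 0.40. Without cKO A these were −0.23, −0.28 and 0.071, so the sign for Rorb rests on that library. Fewer cells of a type and less RNA per cell cannot be told apart in such bulk libraries.

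Crx and Nrl, which drive the photoreceptor and rod programmes, stood at about the same share of WT. Crx (ENSMUSG00000041578, chromosome 7, 15865947 to 15879968, minus strand) had 21919 and 27947 normalized counts in cKO A and B, against 38112 and 36992 in WT A and B. The WT libraries lay close together and both cKO libraries lay well below them. The means were 24933 ± 4262 in cKO and 37552 ± 792 in WT (SD, n = 2 each), and cKO stood at 66.4% of WT. Nrl (ENSMUSG00000040632, chromosome 14, 55518978 to 55524981, minus strand) had 9061 and 8632 in cKO A and B, against 14534 and 11496 in WT A and B. Here the cKO libraries were the close pair, and the groups did not overlap. The means for Nrl were 8847 ± 303 in cKO and 13015 ± 2148 in WT (SD, n = 2 each), 68.0% of WT. The log2 fold change was −0.60 for Crx with a standard error of 0.20 and −0.55 for Nrl with 0.19. Both had an adjusted p = 0.771 in limma, where 0 of the 14480 genes tested passed. Without cKO A, Crx had −0.43. Nrl was the only one of the 8 lower regulators whose log2 fold change without cKO A, −0.58, was further from 0 than with all libraries.

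Nr2e3 was lower in cKO by more than Crx and Nrl and had the second smallest p of all genes tested. Nr2e3 (ENSMUSG00000032292, chromosome 9, 59942771 to 59960659, minus strand) had 7558 and 10668 normalized counts in cKO A and B, against 21789 and 19652 in WT A and B. Each cKO library lay below both WT libraries by more than the gap within either group. The means were 9113 ± 2199 in cKO and 20720 ± 1511 in WT (SD, n = 2 each), 44.0% of WT. Its log2 fold change was −1.20 (standard error 0.23). Its limma p was 0.00224 before adjustment and its adjusted p = 0.771. In DESeq2 on the recovered reads Nr2e3 was the single gene that passed (adjusted p = 0.0375), 0.00691% of those tested. Without cKO A its log2 fold change was −0.96. In edgeR on the same reads it did not pass (adjusted p = 0.858), and 0.0% of genes did. Esrrb, a nuclear receptor described in rod photoreceptors, was near the lower edge of what these libraries measure. Esrrb (ENSMUSG00000021255, chromosome 12, 86361117 to 86521628, plus strand) had 81.0 and 36.4 normalized counts in cKO A and B, against 34.9 and 20.7 in WT A and B. These rest on 29 and 55 reads in cKO A and B and on 46 and 30 reads in WT A and B. Exact Poisson 95% intervals were 54.3 to 116 in cKO A and 27.4 to 47.3 in cKO B, against 25.6 to 46.6 in WT A and 14.0 to 29.6 in WT B, and they cover counting error only. The interval of cKO B overlaps both WT intervals, while at tag B the value of each library lies outside the interval of the other. For Esrrb the log2 fold change was 0.99 (standard error 0.88), with an adjusted p = 0.771 in limma and a log2 fold change of 0.42 without cKO A.

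The SAM-domain silencers were lower in both cKO libraries, and Samd11 had the lowest share of WT of all 9 regulators. Samd11 (ENSMUSG00000096351, chromosome 4, 156246966 to 156255657, minus strand) had 2126 and 7305 normalized counts in cKO A and B, against 15187 and 14186 in WT A and B. The WT libraries were alike, and the cKO libraries differed from each other, by ratio, more than for any other regulator, with tag A at 14.0% of WT A and tag B at 51.5% of WT B. The means were 4716 ± 3662 in cKO and 14687 ± 708 in WT (SD, n = 2 each), 32.1% of WT. Samd7 (ENSMUSG00000051860, chromosome 3, 30746293 to 30767174, plus strand) had 1872 and 3485 in cKO A and B, against 6346 and 5380 in WT A and B. Its cKO libraries stood at 29.5% of WT A and 64.8% of WT B and its groups did not overlap. The means for Samd7 were 2679 ± 1141 in cKO and 5863 ± 684 in WT (SD, n = 2 each). The log2 fold changes were −1.90 for Samd11 with a standard error of 0.56 and −1.19 for Samd7 with 0.32. Both had an adjusted p = 0.771 in limma. Without cKO A, limma gave −1.01 for Samd11 (adjusted p = 0.01004) and −0.75 for Samd7 (adjusted p = 0.0794), under the assumption that cKO varies as much as the WT pair. That fit called 0.373% of all genes. Of the exon bases of Samd11, 598 of 3588 are shared with Noc2l on the opposite strand, and the sources used here do not give the strand setting of the counting. Noc2l had 8581 and 8427 normalized counts in cKO A and B, against 7558 and 7922 in WT A and B, the opposite order to Samd11.

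**Figure D1:**
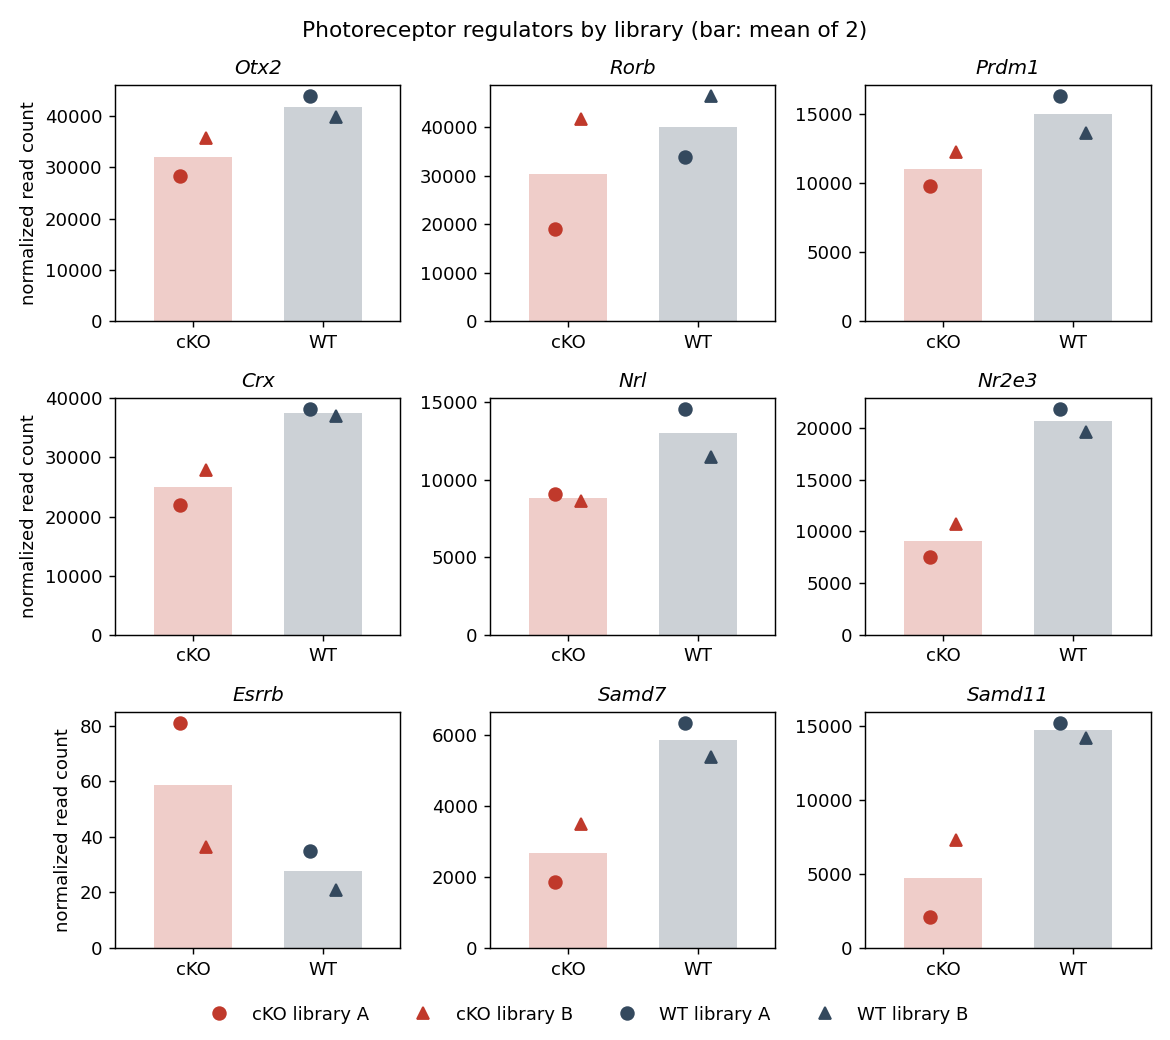
Normalized read counts of the 9 regulators (y axes, linear from 0) in cKO and WT libraries, with circles for tag A, triangles for tag B and bars for the mean of 2 libraries. For 7 genes both cKO points lie below both WT points, Rorb overlaps and Esrrb lies higher in cKO at counts of 20.7 to 81.0.

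Across the 9 regulators, all of which reached the mean normalized count of 10 needed for testing, 8 were lower and 1 was higher in cKO, where 53.3% of all tested genes were lower. The groups did not overlap for 7 of the lower ones, where 22.3% of all tested genes were lower without overlap, and for Esrrb on the higher side, where 17.2% of all tested genes were. The median log2 fold change of the 9 genes was −0.55, beside −0.03 over all tested genes. In limma 0 of 9 passed at an adjusted p under 0.05, as did 0.0% of all genes, and 5 of 9 had an unadjusted p under 0.05 (Crx, Nrl, Nr2e3, Samd7 and Samd11), where 1.89% of all genes did. In the authors' deposited table Samd11 had an adjusted p of 0.00496 and Nr2e3 of 0.0118, and 0.28% of the genes with a p there passed as lower in cKO. The other 7 regulators did not pass in the authors' deposited table, with Samd7 next at 0.296.

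The library pairs of each tag gave the same direction for every regulator, with a larger distance from 0 at tag A. At tag A all 8 lower genes had a log2 ratio below −0.5, but 29.8% of all tested genes did so too. At tag B, the pair of deep libraries, 3 of 9 did: Samd11 at −0.96, Nr2e3 at −0.88 and Samd7 at −0.63. There 6.8% of all tested genes lay below −0.5, and 5.26% did so at both tags. Crx and Nrl came next at tag B with −0.40 and −0.41, and Otx2, Prdm1 and Rorb each had −0.16. With 1 library a group at each tag these ratios have no test.

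**Figure D2:**
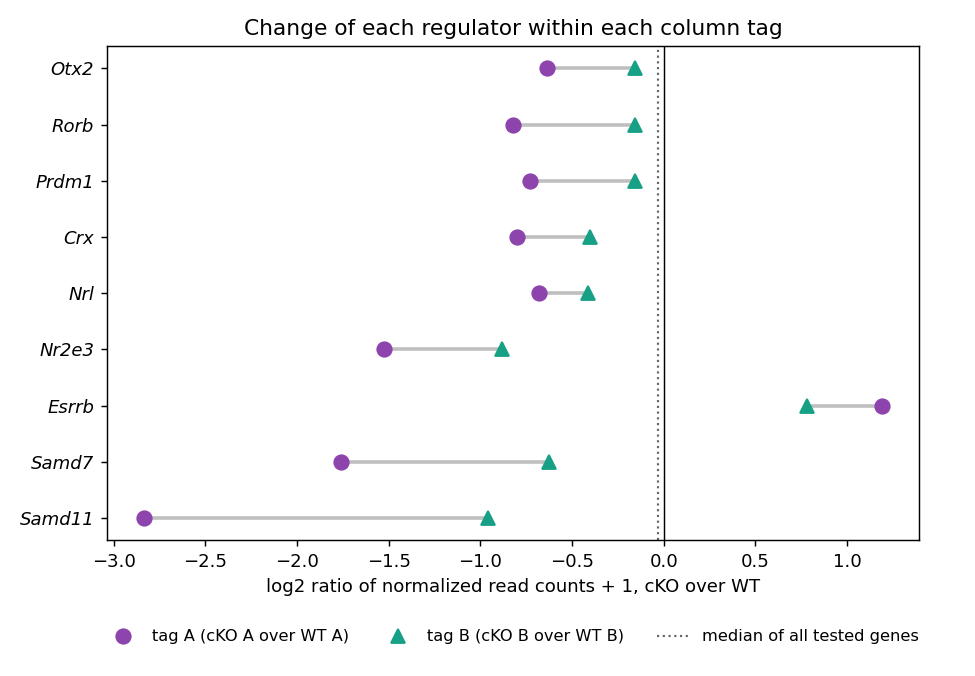
Log2 ratio of normalized counts + 1, cKO over WT (x axis), for each regulator (rows) at tag A (circles) and tag B (triangles), with the median log2 fold change of all tested genes as a dotted line. Samd11, Nr2e3 and Samd7 lie furthest to the left at both tags, and Otx2, Rorb and Prdm1 lie at −0.16 at tag B.

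Ratios within a library do not depend on the scaling between libraries, so each regulator was also set against Crx. Per 100 counts of Crx, Nr2e3 had 34.5 and 38.2 in cKO A and B, against 57.2 and 53.1 in WT A and B. Samd11 had 9.70 and 26.1 in cKO A and B, against 39.9 and 38.4 in WT A and B. Samd7 had 8.54 and 12.5 in cKO A and B, against 16.65 and 14.54 in WT A and B. These 3 of 8 genes had a lower ratio in both cKO libraries than in both WT libraries, where 1.67% of tested genes with reads in every library did. For Nrl the ratio overlapped between the groups, at 41.3 and 30.9 in cKO A and B, against 38.1 and 31.1 in WT A and B. It overlapped for Rorb too, while Otx2, Prdm1 and Esrrb had a higher ratio in both cKO libraries, as did 74.6% of these genes. Otx2 had 128.8 and 127.6 per 100 counts of Crx in cKO A and B, against 115.0 and 107.6 in WT A and B. The log2 difference of the ratio to Crx was −1.30 for Samd11, −0.60 for Nr2e3 and −0.59 for Samd7, and at tag B −0.55, −0.48 and −0.22. An exact two-sided permutation test of 2 libraries against 2 cannot go below p = 0.333, which each of these gave. Against Otx2 the same 3 genes and Crx were lower in both cKO libraries, where 3.85% of genes were.

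**Figure D3:**
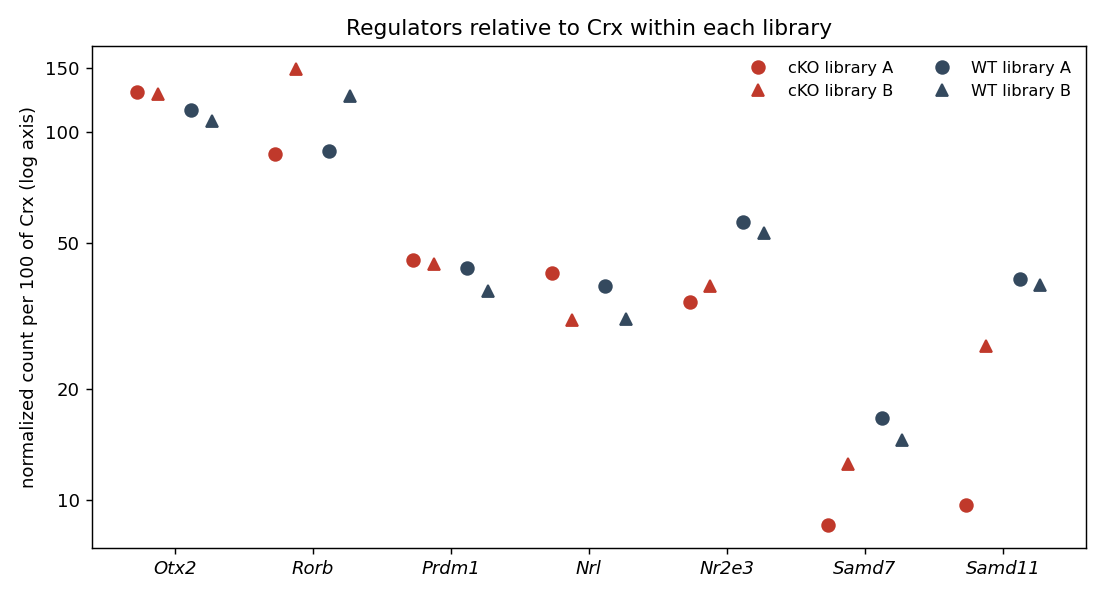
Normalized counts of 7 regulators per 100 of Crx in the same library (y axis, log scale), with cKO libraries in red to the left of WT libraries in dark blue, circles for tag A and triangles for tag B. Nr2e3, Samd7 and Samd11 lie lower in both cKO libraries, and Nrl and Rorb overlap between the groups.

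Pairs of regulators with related roles were compared in the same way, after their values were seen. Per 100 counts of Nrl, its target Nr2e3 had 83.4 and 123.6 in cKO A and B, against 149.9 and 170.9 in WT A and B, so the ratio was lower in both cKO libraries. Per 100 counts of Samd7, its partner Samd11 had 113.6 and 209.6 in cKO A and B, against 239.3 and 263.7 in WT A and B. Per 100 counts of Nr2e3, Samd7 had 24.8 and 32.7 in cKO A and B, against 29.1 and 27.4 in WT A and B, which overlap. Samd11 had 28.1 and 68.5 per 100 counts of Nr2e3 in cKO A and B, against 69.7 and 72.2 in WT A and B. At tag B the ratio of Samd11 to Nr2e3 differed by −0.08 (log2, cKO minus WT), while tag A showed −1.31.

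Levels of different genes were compared as normalized counts per kilobase of exon, with the exons of all annotated transcripts of a gene merged. The length of the transcripts expressed here was not measured, so the order depends on this choice of length. Crx and Otx2 were first and second in both groups, with 7890 and 7570 in cKO and 11880 and 9910 in WT, and Samd7 and Esrrb were eighth and ninth. In WT, Nr2e3 came next with 6150, then Samd11 with 4094 and Rorb with 3626. In cKO, Samd11 came seventh with 1314, below Rorb with 2744, Nr2e3 with 2704, Prdm1 with 1980 and Nrl with 1555. The ranges of some genes in these orders overlap, so their order within each library is given too. In WT the values of Samd11 (4233 and 3954) lie across those of Rorb (3057 and 4194), and their order differs between the libraries. Those of Prdm1 (2923 and 2451) lie across those of Nrl (2555 and 2021), but Prdm1 was higher in both WT libraries. In cKO the values of Crx (6936 and 8844) overlap those of Otx2 (6690 and 8449), but Crx was higher in both cKO libraries. Those of Samd11 (593 and 2036) overlap those of Nrl (1593 and 1517), Prdm1 (1761 and 2199) and Samd7 (468 and 872). In both cKO libraries Samd11 was below Prdm1 and above Samd7, while its order with Nrl differed between them. Rorb, at 1726 and 3762 in cKO, spans Nr2e3 at 2243 and 3166 and overlaps Prdm1 and Samd11. Rorb was above Samd11 in both cKO libraries, and its order with Nr2e3 and with Prdm1 differed between them. Between Crx at 12060 and 11710 and Otx2 at 10390 and 9429 the WT libraries did not overlap. Crx lay above 97.4% or more of the tested genes per kilobase in every library, and Esrrb above 1.71% to 13.0%.

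Genes downstream of these regulators were described from lists, without a test of a list. Of 25 rod genes under Crx and Nrl, 23 were lower in cKO and 2 higher, and 0 passed in limma (12 had an unadjusted p under 0.05). Their median log2 fold change was −0.77, or −0.67 without cKO A. Over all tested genes, 53.3% were lower, 1.89% had an unadjusted p under 0.05 and the median was −0.03. Tulp1, a protein of photoreceptor vesicle traffic, had 3948 and 7033 normalized counts in cKO A and B, against 13246 and 11484 in WT A and B. Sag, the rod arrestin, had 5420 and 4627 in cKO A and B, against 8888 and 7967 in WT A and B. Both were below WT in each cKO library, with log2 fold changes of −1.23 and −0.75 in limma (adjusted p = 0.771 for each). Rbp3, a retinoid carrier between photoreceptors and pigment epithelium, had −0.39, or −0.67 without cKO A. Gnb1, a G protein subunit used in many cells, had 0.19, or −0.029 without cKO A, so its sign rests on that library. Of 12 tested genes listed as cone genes held down by Nr2e3 and Nrl, 12 were lower by log2 fold change. None passed in limma (2 had an unadjusted p under 0.05). At each tag 11 of the 12 were lower, and 7 were lower without overlap, where 22.3% of all tested genes were. Their median was −0.78, or −0.45 without cKO A. The cone list holds Guca1a, which is on the rod list too, and repression of each listed gene was not tested. Opn1sw, the short-wave cone opsin, had 3361 and 5465 in cKO A and B, against 6609 and 11233 in WT A and B. Gnb3, a transducin subunit, had 5532 and 12738 in cKO A and B, against 16044 and 18907 in WT A and B. The log2 fold changes were −1.01 for Opn1sw, −1.05 for Gnb3, −0.36 for Gngt2 and −0.53 for Gnat2, and without cKO A they were −0.66, −0.45, −0.25 and −0.45 in the same order. Opn1mw, the middle-wave opsin, was at 0 in all 4 libraries and was not tested.

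Other regulators and partners had medians nearer to 0. Of all tested genes, 53.3% were lower and 1.89% had an unadjusted limma p under 0.05. Of 20 further photoreceptor regulators, 13 were lower, 7 higher and 0 passed in limma (1 had an unadjusted p under 0.05). Their median was −0.17, or −0.15 without cKO A. Without overlap, 11 of these 20 were lower and 3 higher, where 22.3% and 17.2% of all tested genes were. Neurod1, a basic helix-loop-helix factor of photoreceptors, had 16801 and 19925 normalized counts in cKO A and B, against 25482 and 23592 in WT A and B, a log2 fold change of −0.42. Notch1, the receptor that keeps progenitors undifferentiated, had 0.00, Rax, an eye field factor, had 0.10, or −0.021 without cKO A, and Neurod4 had −0.13. Of 9 tested bipolar genes, which Otx2 activates and Prdm1 opposes, 6 were lower and 3 higher, with a median of −0.23, of 0.07 at tag B and of −0.013 without cKO A. The log2 fold change was 0.23 for Prkca, −0.50 for Lhx4 and −0.05 for Gnao1. Without cKO A it was −0.021 for Prkca and −0.17 for Lhx4. Of 18 subunits and partners of Polycomb repressive complex 1, the complex through which the SAM-domain proteins act, 12 were lower and 6 higher, 0 passed, 0 had an unadjusted limma p under 0.05 and the median was −0.14, or −0.030 without cKO A. Phc2, a polyhomeotic subunit with its own SAM domain, had 24132 and 14859 in cKO A and B, against 16436 and 13165 in WT A and B. The log2 fold changes were 0.36 for Phc2, −0.15 for Phc1 and −0.14 for Cbx2, and without cKO A they were 0.014, −0.049 and 0.058 in the same order.

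Markers of microglia and astrocytes were lower in the same libraries, and most markers of progenitors and dividing cells were higher. Of the 14480 tested genes, 7711 were lower and 6769 higher in cKO. Those lower without overlap made up 22.3%, and 1.89% had an unadjusted limma p under 0.05. All 12 microglial markers were lower in both cKO libraries, and their summed normalized counts were 1364 and 9388 in cKO A and B, against 22387 and 20879 in WT A and B. The cKO sum was 6.09% of WT at tag A, against 45.0% for tag B, and Aif1 was the marker at 0 in cKO A. None of the 12 passed over all genes, and 11 had an unadjusted limma p under 0.05. Csf1r, the receptor microglia need for survival, had 346 and 2293 in cKO A and B, against 6021 and 4788 in WT A and B, and Ctss, Laptm5 and C1qb had log2 fold changes of −2.78, −2.67 and −2.45. Without cKO A, Ctss had −1.03, Laptm5 −1.30 and C1qb −1.01, and the median of the 12 markers was −1.20, against −2.63 with all libraries. Astrocyte markers summed to 1179 and 1136 in cKO A and B, against 2339 and 1557 in WT A and B, with 5 of 5 lower and a median log2 fold change of −0.68, or −0.76 without cKO A. Of 14 progenitor markers 12 were higher, at a median of 0.16, and of 10 markers of dividing cells 8 were higher, at a median of 0.38. Without cKO A both of these medians were 0.11. The part of these cells in the values of the 9 regulators was not tested. Medians were 0.07 for ganglion cell, −0.06 for amacrine and horizontal cell, 0.13 for Mueller glia, −0.35 for endothelial and mural and −0.08 for pigment epithelium markers, and 0 of them passed in limma. Without cKO A the medians were 0.56, 0.0050, −0.073, −0.42 and −0.25 in the same order, so the sign turned for amacrine and horizontal cell and for Mueller glia markers.

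**Figure D4:**
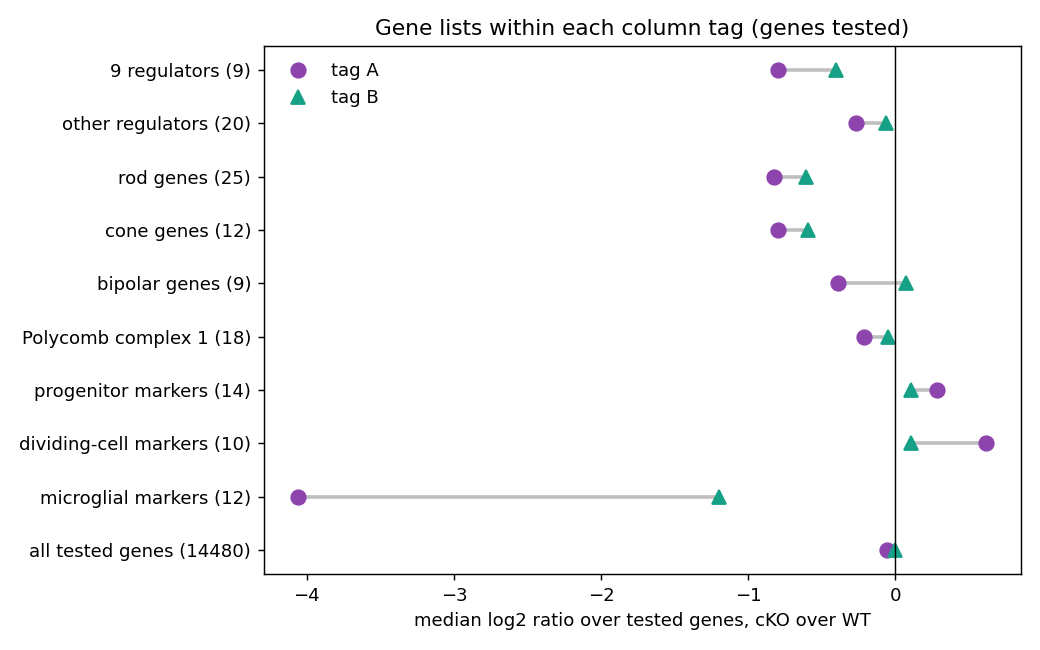
Median log2 ratio of cKO over WT (x axis) of the 9 regulators, related gene lists, 3 lists of cell type markers and all tested genes (rows, number of tested genes in brackets) at tag A (circles) and tag B (triangles). The regulators lie at −0.80 and −0.40, near the rod list at −0.82 and −0.61 and the cone list at −0.80 and −0.59. The microglial markers lie at −4.06 and −1.20.

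The genes whose 4 values were most like those of Samd11 and Nr2e3, the regulators with the largest log2 fold changes, were sought among 10270 genes with a mean of at least 500. The measure was the root mean square distance between log2 values, each centred on the mean of its gene. Nearest to Samd11 were Pnpla3 at 0.14, Fyco1 at 0.17 and Unc93b1 at 0.19. Pnpla3 had 330 and 1418 normalized counts in cKO A and B, against 2931 and 2370 in WT A and B. Nearest to Nr2e3 were Sepp1 at 0.06, Rasgrf2 at 0.11 and Cln3 at 0.12. Sepp1 had 687 and 975 in cKO A and B, against 1801 and 1661 in WT A and B. Such likeness over 4 libraries describes a pattern only.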

How the data were processed

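RNA-seq of 4 libraries of sorted 4N retinal cells was used, 2 cKO and 2 WT. The submitters' processing notes name FastQC, TopHat, HTSeq, DESeq and the build mm10, and the sources used here give no versions, annotation or strand setting. The deposited signal is a normalized count per gene, per the file headers, which the authors made by dividing reads by a size factor, as the values show. The values came out as whole reads in 100% of cases, within 0.01 reads, so counts were recovered. The authors' deposited p-value and adjusted p-value columns were copied as given. WT columns carry replicate numbers, and both cKO columns are headed replicate 2, so the cKO columns were assigned by group only.

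For the 14480 genes that averaged 10 or more, limma was fitted to log2(normalized count + 1), two-sided, with a prior that follows the mean and Benjamini-Hochberg adjustment over all of them at 0.05. Count tests served as alternatives. The libraries of a group differed beyond sampling noise, at a chi-square per degree of freedom of 113 for cKO and 67.0 for WT. In cKO A 3 reads stand for 8.38 normalized counts, and for 1.98 to 2.28 in the others. The fits were also run on simulated reads, with the same dispersion for every gene and no library that stood apart. That setting cannot show how the fits perform on libraries that differ as these do.

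The regulators and lists were chosen with earlier results of these data known. Named are the 9 regulators, Casz1, in each list the genes that passed or else the 4 with the highest mean, and the 3 nearest patterns. Some genes that this rule names are not reported here. Astrocyte, ganglion, amacrine, Mueller, endothelial and pigment epithelium markers are given by list. Positions and exon lengths are from GENCODE M21 (GRCm38), where 96.1% of gene identifiers were found. Alternatives were pseudocounts of 0.5 and 5, no filter, a mean of at least 50, median rescaling, no mean-dependent prior, edgeR, DESeq2, a tag block and leaving out each library. Versions were R 4.3.3, limma 3.58.1, edgeR 4.0.16, DESeq2 1.42.0 and Python 3.11.15.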

Additional observations from a re-analysis of the deposited data

How the results depend on the processing

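The count of 0 regulators past the threshold, and of 0 genes over the whole table, held in limma with other pseudocounts, filters, rescaling and no mean-dependent prior, and in edgeR. DESeq2 gave 1 regulator, Nr2e3, among 1 gene. Leaving out each library in turn gave 0 to 9 regulators and 0 to 5768 genes. Without cKO A these were 2 (Nr2e3 and Samd11) and 54, and without cKO B 9 and 5768 (39.8% of tested genes); the cause was not tested. The median of the regulators ranged from −0.78 to −0.43. The log2 fold change of Rorb ranged from −1.05 without cKO B to 0.071 without cKO A, and no other regulator changed sign under any alternative run. Without cKO A the value moved by over 1.5 times for Samd11 (−1.01), Samd7 (−0.75), Otx2 (−0.23), Prdm1 (−0.28) and Esrrb (0.42). Esrrb had 1.55 without cKO B and 0.62 without WT B, where Rorb had −0.26. Rescaling moved the median of all genes by under 0.1.

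No source says what the shared tags stand for. Across genes, libraries with the same tag deviated from their group means with a correlation of 0.258. With the replicate block 0 regulators passed in limma (Nr2e3 and Samd11 at adjusted p = 0.343) and edgeR. DESeq2 with the block gave 3 regulators (Nr2e3, Samd7 and Samd11) among 43 genes, 0.297% of those tested. The edgeR and DESeq2 fits with the block were chosen after seeing the data. Esrrb rests on 29 to 55 reads per library.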
